A study of Mus musculus with 15 samples.

Results

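The 10 genes described here, Spry1, Spry2, Spry4, Spred1, Spred2, Dusp4, Dusp5, Dusp6, Etv4 and Etv5, are feedback genes of the mitogen-activated protein kinase (MAPK) pathway. Their histone H3 lysine 27 acetylation (H3K27ac) was read from a list of 122375 peaks called in a single tumor library. A peak was taken when it overlapped the RefSeq span of one of the genes or the 50 kb on either side, which gave 243 peaks. A peak within 2 kb of a start site of the gene was counted as a promoter peak (36 peaks), a peak elsewhere in the gene as a gene body peak (101 peaks) and the rest as flank peaks (106 peaks). No peak was counted for more than 1 of the 10 genes.

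The library came from mice that, in the paper, developed several types of tumor, fusion-positive rhabdomyosarcoma (FP-RMS) among them. In this sarcoma with features of skeletal muscle, the transcription factor PAX3 or PAX7 is fused to FOXO1. The mice used here carry the PAX3 fusion. In these mice, called MCP, a Myf6-Cre allele expresses the recombinase in myogenic cells. Cre deletes Cdkn2a (Flox/Flox), a tumor suppressor gene, switches on the fusion from an allele at Pax3 and labels the cells through R26-tdTom. The sample labels spell that allele Pax(3P3F/P3F), and the paper spells it Pax3 P3Fm/P3Fm. The study profiled sorted tumor cells by CUT&RUN, in which a nuclease tethered to an antibody releases the DNA fragments beside the bound mark, with IgG as the background. The series held 6 MCP and 3 TCP libraries for H3K27ac and 3 of each for IgG, TCP being the same model with Tek-Cre. The peak list was tied to MCP replicate 5 for H3K27ac through the run number in its peak names, which only that sample's description gives. That description numbers the library differently from the title, and the title was followed here. The label gives no tumor number, and the other libraries were not analysed here. There was thus 1 sample and no replicate, so the values below describe that library and carry no p-value between genes or conditions.

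Receptor tyrosine kinases signal through RAS, RAF and MEK to the kinases ERK1 and ERK2, which then alter transcription. Among the genes that ERK activity induces are several whose products restrain the pathway, so the signal limits itself. Sprouty proteins (Spry1, Spry2, Spry4) and SPRED proteins (Spred1, Spred2) hinder the activation of RAS and RAF, and the dual-specificity phosphatases Dusp4, Dusp5 and Dusp6 remove phosphate from ERK. Etv4 and Etv5 are ETS transcription factors of the PEA3 group, induced by fibroblast growth factor signals, and serve widely as readouts of the pathway. In skeletal muscle Spry1 is known for its part in the quiescence of muscle stem cells. H3K27ac marks active promoters and enhancers, and it does not itself measure the RNA of a gene.

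The values are fold enrichments, that is, fragments at the summit of a peak, scaled by 0.885 and with 1 added, over the local IgG background with 1 added. Fragment numbers were recovered from the fold and the p of each peak, and intervals in brackets are exact 95% Poisson intervals of the fragments at the summit. These intervals cover counting error only, because no molecular identifiers were used to tell copies of a molecule apart and because a summit is chosen for being the highest point. The depth behind the values was low. Summits near the 10 genes held a median of 12 fragments (range 7 to 34), and 216 of the 243 (88.9%) held fewer than 20, against a median of 13 over all peaks. For 240 of the 243 peaks only 1 whole number of fragments solved both columns.

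Each of the 10 genes had at least 1 promoter peak, against 45.6% of 21000 protein-coding genes. Restricted to peaks with a -log10 q of 5 or more, 10 of the 10 still had one, against 37.9% of all genes. At least 4 promoter peaks were found for 7 of the 10 genes, against 13.6% of all genes. Spry2, Spry4, Spred2, Dusp4 and Dusp6 had 4 each, Spred1 had 5 and Etv5 had 6. Etv5 has 2 start sites and each of the other genes 1, so its promoter region is wider. Spry1 and Etv4 had a single promoter peak each.

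Peaks were counted per 100 kb of window so that long and short genes could be set side by side. Dusp6 stood highest with 33.6 peaks per 100 kb, followed by Spred1 (29.2), Spry1 (25.8), Spred2 (25.6), Dusp4 (16.9), Spry2 (14.3), Dusp5 (12.4), Etv4 (9.52), Etv5 (9.48) and Spry4 (7.82). The median of the 10 was 15.6, against 5.62 over all protein-coding genes, whose quartiles were 0.901 and 12.51. Each of the 10 exceeded the median of all genes, and 9 exceeded the median of their own chromosome, the exception being Etv4 (9.52 against 11.3 on chromosome 11). Peaks covered 5.08% of the 1288 kb of windows, from 1.16% around Spry4 to 11.6% around Dusp6.

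**Figure D1:**
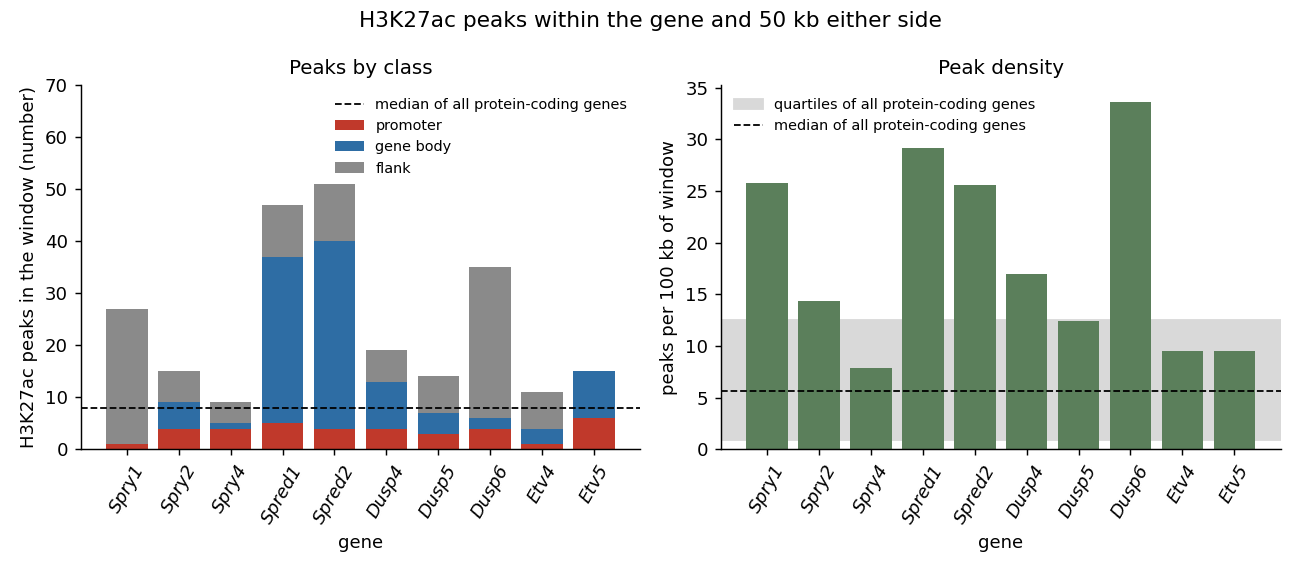
H3K27ac peaks in the windows of the 10 genes in MCP replicate 5. The left panel stacks the number of promoter, gene body and flank peaks of each gene, and the right panel gives peaks per 100 kb of window, with the median (dashed) and quartiles (grey) of 21000 protein-coding genes. Spred2 (51 peaks) and Spred1 (47) had the most peaks, mainly in the gene body, and Dusp6 had the highest density.

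The layout of the peaks differed between the genes. Around Spry1 and Dusp6, genes under 5 kb long, 26 of 27 and 29 of 35 peaks lay in the flank, whereas around Spry2, also under 5 kb, 6 of 15 did. In Spred1 and Spred2, genes of 61.2 and 99.6 kb, 32 of 47 and 36 of 51 peaks lay in the gene body. Etv5 had no flank peak at all within 50 kb, although its promoter held 6 peaks and its body 9. When peaks no more than 1 kb apart were joined, the 243 peaks formed 91 groups, of which 27 were single peaks and 11 held 5 or more.

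**Figure D2:**
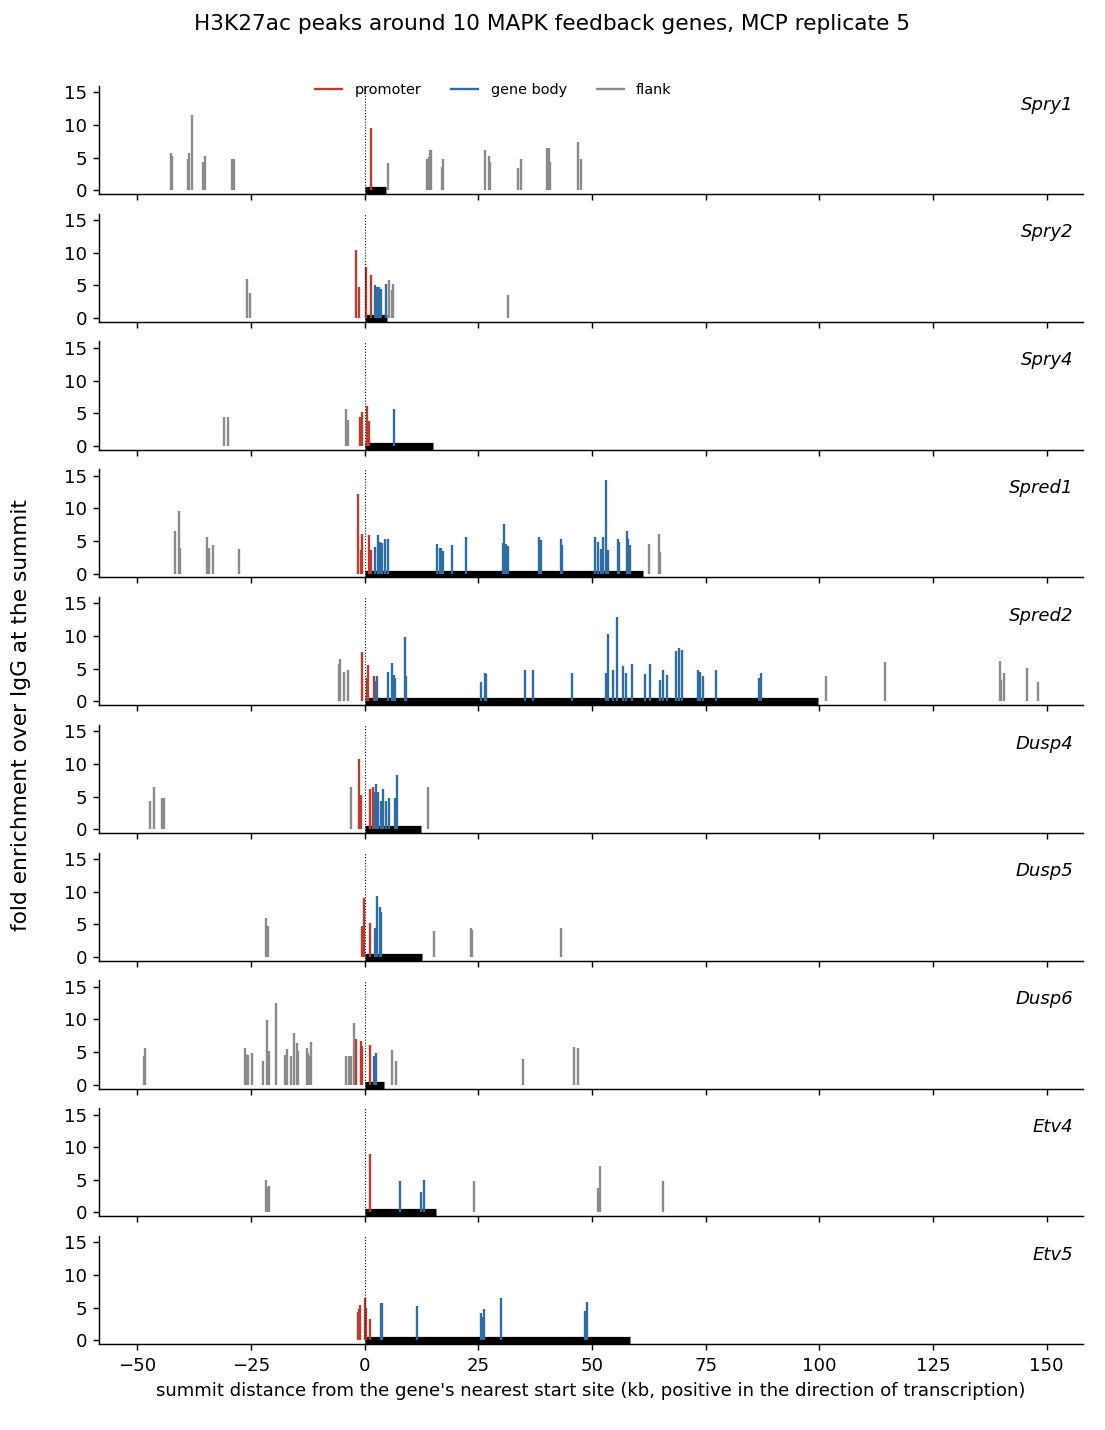
Each vertical line is 1 of the 243 peaks, placed by the distance of its summit from the nearest start site of the gene (kb, positive in the direction of transcription) and drawn to its fold enrichment over IgG. The black bar is the gene, and colors give the class of the peak. The tallest lines belong to Spred1 (14.3, gene body), Spred2 (13.0, gene body) and Dusp6 (12.6, flank), while no line of Spry4 or Etv5 exceeds 6.51.

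Spry1 encodes a sprouty inhibitor and lies at chr3:37639947-37644599 on the plus strand of mm10. Its window held 27 peaks. The single promoter peak (chr3:37641274-37642445) was 1172 bp wide, had its summit 1397 bp after the start in intron 2, and reached a fold of 9.53 (6.08 to 14.3, 21 fragments). The strongest peak of the window was not at the promoter. It lay upstream in the flank at chr3:37601468-37604101, was 2634 bp wide and reached a fold of 11.5 (7.86 to 16.2) with 30 fragments over a background of 1.404, its summit 38.0 kb before the start of Spry1. The nearest start site to that summit was that of the long noncoding RNA 4930594O21Rik, 7956 bp away, which itself had 2 peaks within 2 kb (up to 4.79). In all, 15 of the 26 flank peaks had Spry1 as their nearest start. The 3′ flank held 17 peaks between 5.14 and 47.6 kb from the start, with folds of 3.35 to 7.37.

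The 201 bases around the summit of that flank peak, the highest point near Spry1, are shown with the RefSeq promoter of the gene (GRCm38, 250 bases before to 50 after the start), which no peak overlapped. Both are on the plus strand, chr3:37601835-37602035 and chr3:37639697-37639996. Capitals mark a match to the TEAD motif GGAATG, at position 43 of the promoter, counted from 1 at its 5′ end. Matches to the KLF and SP motif, frequent in promoters, are not marked here or in the sequences that follow.
Spry1 flank summit: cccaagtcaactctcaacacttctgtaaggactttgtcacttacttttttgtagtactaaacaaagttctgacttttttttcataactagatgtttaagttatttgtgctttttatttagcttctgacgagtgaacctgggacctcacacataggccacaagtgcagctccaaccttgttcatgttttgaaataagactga
Spry1 promoter: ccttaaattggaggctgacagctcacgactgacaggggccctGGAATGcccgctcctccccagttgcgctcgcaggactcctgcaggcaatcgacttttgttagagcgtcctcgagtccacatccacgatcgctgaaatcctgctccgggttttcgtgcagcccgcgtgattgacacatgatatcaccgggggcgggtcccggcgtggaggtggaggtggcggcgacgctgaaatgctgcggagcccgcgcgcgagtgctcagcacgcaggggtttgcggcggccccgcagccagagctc
The summit sequence had 36.8% G and C and 1 CpG, and the promoter 64.3% and 29 CpG.

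Spry2 encodes another sprouty inhibitor and lies on the minus strand at chr14:105891947-105896819. Of its 15 peaks, 10 formed a single group over the gene, from 0.246 to 6.30 kb after the start, in which no gap exceeded 1 kb. Its strongest peak was at the promoter, with a summit 1856 bp before the start (chr14:105898383-105898873) and a fold of 10.4 (6.76 to 15.3, 23 fragments). The peak next to the start (summit 246 bp after it) had a fold of 7.80, and exon 2 and the bases just past the gene held weaker peaks, up to 5.17 and 5.76. No start site of another gene lay in the window.

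Spry4, the sprouty gene with the fewest peaks, is on the minus strand at chr18:38586247-38601347. Its 9 peaks were 4 at the promoter, 1 in intron 1 and 4 upstream. The promoter peak with the highest fold (chr18:38600676-38600804) lay 591 bp after the start and reached 6.08 (3.47 to 10.1, 13 fragments), the lowest such value of the 10 genes. Only 3 of its 9 peaks had a -log10 q of 5 or more, and none was among the strongest 25% of the list. The intervals of Spry4, Spry2 and Spry1 at their strongest promoter peaks overlapped, and the order of these 3 genes was not tested.

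The SPRED genes held the most peaks. Spred1 encodes a protein that binds neurofibromin and brings it to the membrane, where neurofibromin inactivates RAS. The gene lies at chr2:117121071-117182279 on the plus strand and had 47 peaks, 18 of them in intron 1, which is 31.2 kb long, and 6 in intron 5, which is 3.26 kb long. Its promoter peak upstream (chr2:117119340-117120095, summit 1474 bp before the start) reached 12.2 (8.44 to 17.2) with 31 fragments, the highest promoter fold among the 10 genes and the 92.1st percentile of genes with a promoter peak. The highest fold of all 243 peaks was in intron 5 at chr2:117173799-117174120, 53.0 kb after the start, at 14.3 (10.1 to 19.8) with 34 fragments over a background of 1.17. The nearest start site to it was that of the microRNA gene Mir674, past the end of Spred1. Masked repeats made up 62.7% of the bases of that peak, against a median of 13.5% for gene body peaks of the 10 genes. A further peak 40.9 kb upstream reached 9.53 (6.08 to 14.3). The 3 peaks just past the gene lay within 2 kb of the start of Mir674 and had folds up to 6.08.

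Spred2, which encodes a related SPRED inhibitor, lies at chr11:19924442-20024026 on the plus strand and had 51 peaks, 34 of them in intron 1, which spans 73.2 kb. The promoter itself was less marked, its strongest peak (summit 533 bp before the start) reaching 7.63 (4.71 to 11.8, 18 fragments). Deep in intron 1, 53.0 to 57.4 kb after the start, 6 peaks formed a group of 4.55 kb with 121 fragments at their summits. The strongest (chr11:19979621-19980725) was 1105 bp wide and reached 13.0 (9.07 to 18.1) with 33 fragments, and its neighbor 53.6 kb after the start reached 10.4. A wider peak of 1991 bp further on (chr11:19986482-19988472) had a fold of only 5.78, over a background of 3.00. In both SPRED genes the highest fold was thus in an intron more than 50 kb from the start. The interval of the intron peak overlapped that of the promoter peak in Spred1 (10.1 to 19.8 and 8.44 to 17.2) and in Spred2 (9.07 to 18.1 and 4.71 to 11.8).

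The summits of the intron peaks of both SPRED genes and of the Spred1 promoter peak are shown because they carry the highest folds. They were read from the plus strand of GRCm38 at chr2:117173952-117174152, chr11:19979745-19979945 and chr2:117119497-117119697. They hold no capitals, since none of the marked motifs was found in any of the 3.
Spred1 intron 5: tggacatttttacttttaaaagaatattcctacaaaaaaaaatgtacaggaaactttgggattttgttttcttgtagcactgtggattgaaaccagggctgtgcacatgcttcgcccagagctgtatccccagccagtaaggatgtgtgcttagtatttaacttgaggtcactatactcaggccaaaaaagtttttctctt
Spred2 intron 1: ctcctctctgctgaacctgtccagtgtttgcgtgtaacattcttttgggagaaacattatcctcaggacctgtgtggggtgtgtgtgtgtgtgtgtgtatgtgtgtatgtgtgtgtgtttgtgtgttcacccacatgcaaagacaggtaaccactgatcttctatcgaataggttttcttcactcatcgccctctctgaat
Spred1 promoter peak: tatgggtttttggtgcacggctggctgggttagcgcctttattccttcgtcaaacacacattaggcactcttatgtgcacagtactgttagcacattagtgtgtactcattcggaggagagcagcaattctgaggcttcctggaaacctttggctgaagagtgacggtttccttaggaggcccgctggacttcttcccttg
The Spred2 summit contains a run of alternating t and g. G and C made up 38.3%, 45.8% and 49.8% of the bases.

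**Figure D3:**
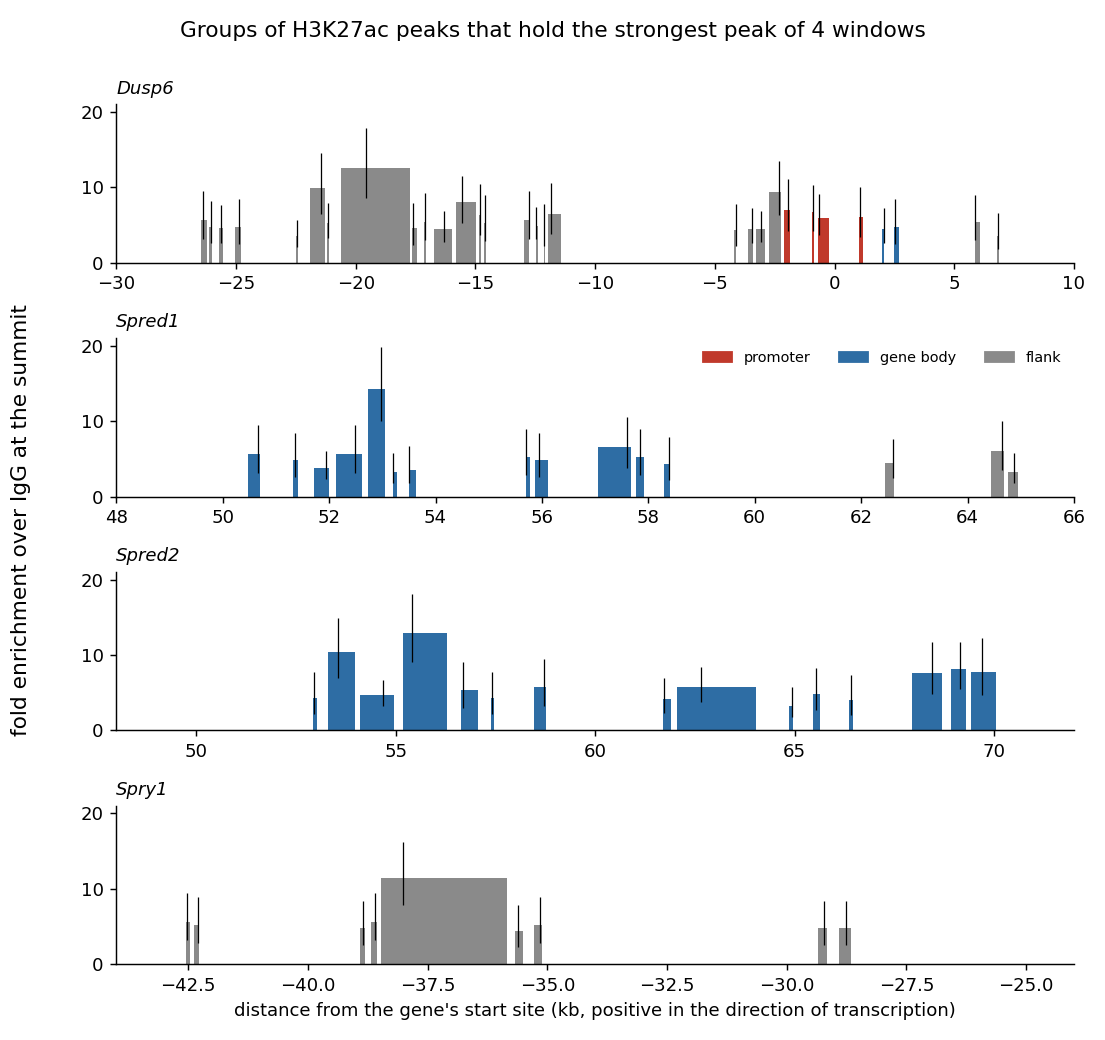
Peaks around the strongest peak of the windows of Dusp6, Spred1, Spred2 and Spry1, drawn to scale along the distance from the start of the gene (kb). Each bar spans a peak, its height is the fold enrichment over IgG at the summit, and the black line is the exact 95% Poisson interval of the fragments placed at the summit. The widest bars are the Dusp6 peak of 2886 bp and the Spry1 peak of 2634 bp, both upstream of the gene.

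Dusp6, which encodes a cytoplasmic phosphatase specific for ERK, lies at chr10:99263231-99267489 on the plus strand, and no other start site lay in its window. Of its 35 peaks, 24 were in the upstream flank. From 22.4 to 14.6 kb before the start, 10 peaks formed the longest group near any of the 10 genes, 7.93 kb long with 179 fragments at the summits. The strongest of them (chr10:99242619-99245504) was 2886 bp wide, the widest of the 243 peaks, and reached 12.6 (8.59 to 17.9) with 29 fragments over a background of 1.12. A peak 21.4 kb upstream reached 9.89 and one 15.6 kb upstream 7.999. Closer in, 7 peaks between 4.14 and 0.634 kb before the start formed a further group, of which the flank peak at 2.32 kb reached 9.43 (6.35 to 13.6). By comparison, the strongest promoter peak of Dusp6 (chr10:99261128-99261370) reached 6.98 (4.19 to 11.1) with 16 fragments. This was the 47.9th percentile of genes with a promoter peak, while the peak density of the window was at the 97.8th percentile of all genes.

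Dusp4 encodes a nuclear phosphatase of ERK and other MAP kinases and lies at chr8:34807610-34819894 on the plus strand. Its strongest peak was upstream at the promoter (chr8:34805760-34806529, summit 1160 bp before the start), with a fold of 10.8 (7.11 to 15.9, 24 fragments). Intron 1, 8.27 kb long, held the summits of 11 of its 19 peaks, up to 8.24 (5.08 to 12.7) at chr8:34814662-34815666, and the other introns held none. Dusp5, which encodes a nuclear phosphatase specific for ERK, lies at chr19:53529145-53541809 on the plus strand and had 14 peaks. Its strongest promoter peak (chr19:53528830-53528923), 263 bp before the start, reached 9.10 (5.75 to 13.8, 20 fragments), and a peak in intron 1 at chr19:53531664-53532109 reached 9.31 (6.17 to 13.6, 25 fragments). In both genes the promoter and intron 1 thus carried similar folds, with intervals that overlapped.

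For the phosphatases, 4 sequences are shown: the flank summit and the promoter peak of Dusp6, which are the strongest peaks of their classes there, the intron 1 summit of Dusp4, and the RefSeq promoter of Dusp5, one of the few promoters that a peak overlapped. All are on the plus strand of GRCm38, at chr10:99243545-99243745, chr10:99261193-99261393, chr8:34814622-34814822 and chr19:53528895-53529194. Capitals mark matches to the motifs searched. In Dusp6 these are an E-box (CAGCTG, position 48) and a CArG box, the motif of serum response factor (position 125), both in the promoter peak. In Dusp4 they are the ETS motif GGAAGT (position 80) and the AP-1 motif TGANTCA (position 105). In Dusp5 they are GGAAGT on the minus strand (position 58) and 2 adjacent CArG boxes (positions 169 and 179).
Dusp6 flank summit: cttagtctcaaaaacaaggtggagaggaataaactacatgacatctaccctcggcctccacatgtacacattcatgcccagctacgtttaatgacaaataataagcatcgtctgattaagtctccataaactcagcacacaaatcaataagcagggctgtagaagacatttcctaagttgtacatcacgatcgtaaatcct
Dusp6 promoter peak: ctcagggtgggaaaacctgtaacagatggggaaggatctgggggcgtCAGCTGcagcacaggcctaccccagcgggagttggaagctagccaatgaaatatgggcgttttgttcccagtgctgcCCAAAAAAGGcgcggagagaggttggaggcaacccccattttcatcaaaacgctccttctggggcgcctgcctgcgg
Dusp4 intron 1 summit: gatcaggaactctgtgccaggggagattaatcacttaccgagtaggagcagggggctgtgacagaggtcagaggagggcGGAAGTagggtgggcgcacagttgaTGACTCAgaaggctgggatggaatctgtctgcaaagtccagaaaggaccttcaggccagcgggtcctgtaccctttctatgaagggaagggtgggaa
Dusp5 promoter: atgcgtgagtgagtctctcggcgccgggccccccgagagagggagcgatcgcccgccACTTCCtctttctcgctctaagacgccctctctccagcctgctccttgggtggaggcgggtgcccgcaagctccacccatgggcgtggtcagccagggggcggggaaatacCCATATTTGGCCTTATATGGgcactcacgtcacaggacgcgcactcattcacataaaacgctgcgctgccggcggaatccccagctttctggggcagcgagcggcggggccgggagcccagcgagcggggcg
A CArG box was present in 1.63% of the 32851 RefSeq promoters of the same length and GGAAGT in 23.8%. A match is a run of letters and not evidence that a factor was bound there.

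Etv4 lies on the minus strand at chr11:101769747-101785310 and had 11 peaks. Its single promoter peak (chr11:101784102-101784275) had its summit 1089 bp after the start in intron 3 and a fold of 9.02 (5.76 to 13.5, 21 fragments). Its strongest body peak, in intron 8, reached 5.05 (3.03 to 7.99), with an interval that overlapped that of the promoter peak. The strongest flank peak, at 7.13 (4.34 to 11.2), lay 51.8 kb after the start and within 2 kb of the start of Dhx8, which encodes an RNA helicase of the spliceosome. Only 4 of its 7 flank peaks had Etv4 as the nearest start. Etv5 lies on the minus strand at chr16:22381313-22439570 and has 2 start sites in the curated RefSeq set. Its 15 peaks were all at the promoter (6) or in the body (9), and its highest folds, 6.51 (3.78 to 10.6, 14 fragments), were reached both by a peak 17 bp before the second start (chr16:22438337-22438443) and by a peak in intron 7 (chr16:22408281-22408401). The largest number of fragments, 23, was at a promoter peak over a background of 3.00, with a fold of 5.34.

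The promoter of the second start of Etv5 is shown because the strongest promoter peak of the gene overlaps it. It lies at chr16:22438319-22438618 and was read from the minus strand of GRCm38, the strand of the gene. Capitals mark 2 copies of the ETS motif GGAAGT, at positions 34 and 253.
Etv5 promoter, second start: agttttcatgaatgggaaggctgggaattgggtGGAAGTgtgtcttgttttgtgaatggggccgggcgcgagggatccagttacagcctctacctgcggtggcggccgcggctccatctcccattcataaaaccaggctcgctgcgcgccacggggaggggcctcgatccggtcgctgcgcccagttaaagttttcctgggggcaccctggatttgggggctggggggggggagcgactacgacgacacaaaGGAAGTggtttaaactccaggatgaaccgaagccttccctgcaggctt
GGAAGT was found in 3 of the 8 RefSeq promoters given for the 10 genes, those of Dusp5, Spred2 and Etv5, against 23.8% of all promoters.

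Ranked by their strongest promoter peak, the genes ran from Spred1 (12.2), Dusp4 (10.8), Spry2 (10.4), Spry1 (9.53), Dusp5 (9.10) and Etv4 (9.02) to Spred2 (7.63), Dusp6 (6.98), Etv5 (6.51) and Spry4 (6.08). Their median was 9.06, against 7.24 for the 9569 protein-coding genes with a promoter peak, and 7 of the 10 exceeded that median. With a promoter of 1 kb on either side the medians were 7.19 over the 8 genes that kept a promoter peak and 7.04 over all genes. In none of the 45 pairs of genes did the intervals separate. Overlap of intervals is not a test of a difference, and no such test was run. Ranked by the strongest peak anywhere in the window, 1 of 45 pairs separated, and only just. The lower bound of Spred1 (14.3) was 10.059 and the upper bound of Spry4 (6.08) was 10.056, with the highest of 47 peaks set against the highest of 9.

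**Figure D4:**
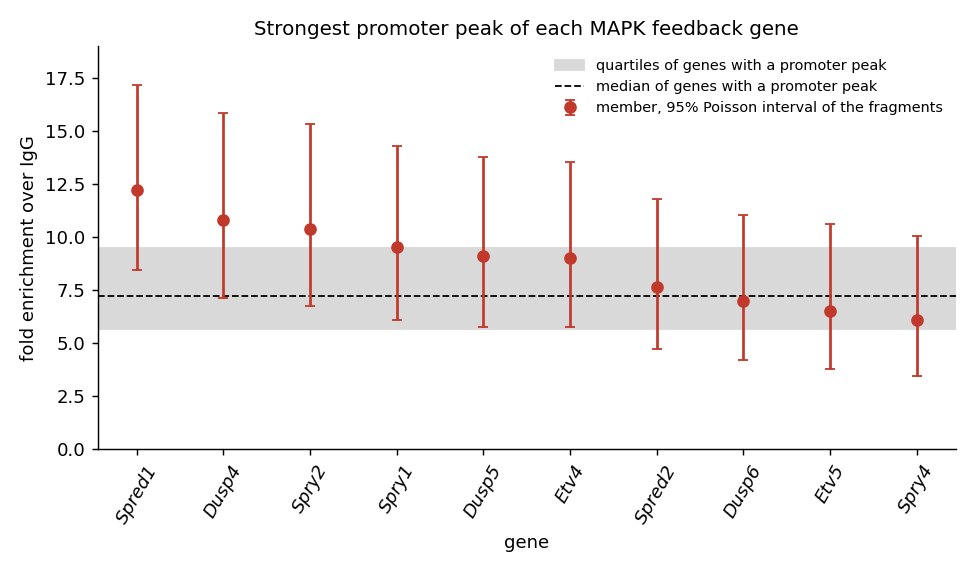
Fold enrichment over IgG of the strongest promoter peak of each gene, with exact 95% Poisson intervals of the fragments at the summit, against the median (dashed) and quartiles (grey) of 9569 protein-coding genes with a promoter peak. The points run from 12.2 (Spred1) to 6.08 (Spry4), and every interval overlaps every other.

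Most of the promoter peaks sat to the side of the start rather than over it. A peak overlapped the 300 bases around a start site (250 before to 50 after) in 2 of the 10 genes, Dusp5 and Etv5, against 38.9% of the genes with a promoter peak. In Dusp6 a peak ended 251 bp before the start, and in Spry2 a peak began 90 bp after it. The summit of the strongest promoter peak lay more than 1 kb from the start in 6 of the 10 genes (Spry1, Spry2, Spred1, Dusp4, Dusp6 and Etv4), against 22.2% of the genes with a promoter peak, and its median distance was 1124.5 bp against 602 bp. The RefSeq table gave 8 promoters for 7 of the genes (Spry1, Spry2, Spred1, Spred2, Dusp5, Dusp6 and Etv5), which held 17 to 40 CpG (median 28, against 7 over all 32851 promoters). Promoters of Spry4, Dusp4 and Etv4 are named only.

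Letters of 11 motifs were counted on both strands in the 201 bases around each summit and set beside all peaks of the same class. The letters were CCGGAAG and GGAAGT for ETS factors, which can overlap, TGANTCA for AP-1, TGACGTCA for the cyclic AMP response element, CAGCTG for the E-box, GTCACG for the PAX paired domain, TGTTTAC for forkhead factors, GGGCGG for KLF and SP factors and GGAATG for TEAD factors, with the PAX homeodomain pair and the CArG box taken by name. Among the 200 peaks away from any promoter, GGAAGT was found in 29 (14.5%, Wilson 95% interval 10.3 to 20.0), against 13.5% of all such peaks. TEAD was found in 31 (15.5%, 11.1 to 21.2, against 11.6%), the E-box in 25 (interval 8.61 to 17.8%, against 10.3%) and AP-1 in 16 (interval 4.98 to 12.6%, against 8.92%). Of the motifs of PAX proteins, the paired domain motif was found in 5 (2.50%, 1.07 to 5.72, against 2.39%) and the homeodomain pair in 3 (interval 0.511 to 4.32%, against 0.951%). In each of the 22 shares (11 motifs in promoter peaks and elsewhere), the share over all peaks lay inside the interval of the peaks near the 10 genes. Searched over whole peaks, this held for 20 of the 22, the exceptions being CCGGAAG (6 of 200 peaks, interval 1.38 to 6.39%, against 1.31%) and the cyclic AMP response element (2 of 200, interval 0.275 to 3.57%, against 0.259%) away from promoters. Peaks of 1 gene share a region and often a group, so these intervals, which treat each peak as independent, are too narrow.

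Peaks were also joined into clusters in the way that super-enhancers are called, leaving out peaks wholly within 1 kb of a start and joining the others within 12500 bp. Among 20840 clusters ranked by summed fold times width, those over Dusp6 (rank 487, 33.3 kb, 28 peaks), Spred2 (rank 634, 62.0 kb, 28 peaks) and Spred1 (rank 874, 64.3 kb, 36 peaks) were in the top 5%. Such a cluster overlapped 3 of the 10 genes, against 5.34% of all protein-coding genes. Dusp4 (rank 1441), Spry1 (2142) and Spry2 (2714) followed, and the cluster over Spry4 ranked 11022. Joined within 5 kb instead, Dusp6 fell to rank 4683 of 30479 and Spred1 to 3130, and the top 5% then held Spred2 (rank 459) and Dusp4 (rank 1177). At that distance the cluster over Dusp6 no longer took in the group of 10 upstream peaks. Joined within 12500 bp but ranked by number of peaks, clusters over 4 of the 10 genes were in the top 5%, with Spry1 added at rank 960. The share of all genes was not computed for these 2 alternatives.

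The rest of the pathway was read from fixed lists of genes. Among the 18 genes of the RAS-MAPK cascade, 17 had a promoter peak, the exception being the scaffold gene Ksr1. The highest folds were those of Nras (290), Ptpn11 (12.1), which encodes the phosphatase SHP2, and Sos2 (9.96), an exchange factor for RAS. The Nras value was the highest fold of the whole list, and its fragments could not be recovered. By comparison, peaks away from promoters reached at most 29.0 over the whole list, and flank peaks of Nras at most 6.08. Why the value stood so far out was not tested, and it is not read here as strong acetylation. Among 17 other brakes on the pathway, 16 had a promoter peak, led by the RAS GTPase-activating gene Rasa1 (14.3) and the phosphatase genes Dusp7 (13.8) and Dusp10 (12.2), and Dusp9 had none. Spry3 was not among the genes measured. Of 14 ERK-induced genes other than the 10, 11 had a promoter peak, led by the immediate early genes Ier2 (11.5) and Ier3 (9.49) and by Phlda1 (8.67), while Egr3, Epha4 and Fosb had none.

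Upstream, 7 of 12 receptor tyrosine kinase genes had a promoter peak. Met (9.96), the receptor of hepatocyte growth factor, Erbb2 (8.67) and Igf1r (8.24) had the highest folds, and Fgfr2, Fgfr3, Fgfr4, Kit and Pdgfrb had none. Of 13 other ETS genes, 10 had one, led by Etv1 (16.8), the third member of the PEA3 group, Elk4 (13.3) and Etv3 (10.4), whereas Erg, Etv2 and Fli1 had none. The median peak density per 100 kb was 13.9 for the cascade, 11.99 for the other brakes, 18.9 for the ERK-induced genes, 10.0 for the receptors and 10.1 for the ETS genes, against 15.6 for the 10 feedback genes. For 10 housekeeping genes the median density was 15.4 and 10 of 10 had a promoter peak, values close to those of the feedback genes.

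**Figure D5:**
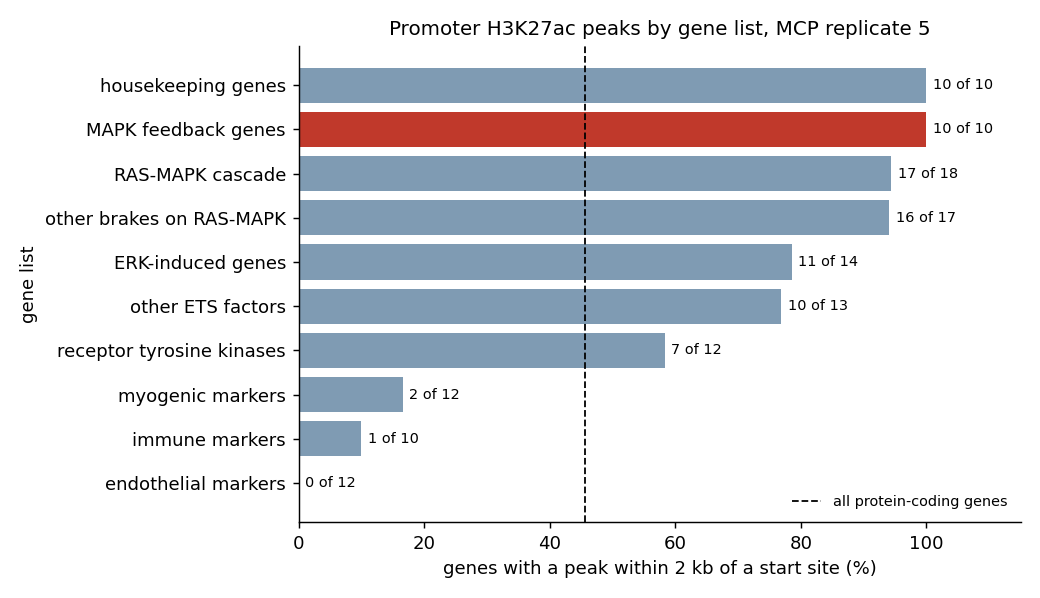
Share of the genes of each list with a promoter peak (%), with the number of genes beside each bar and the share of all protein-coding genes as a dashed line at 45.6%. The feedback genes and the housekeeping genes are at 10 of 10, and the endothelial markers at 0 of 12.

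The label of the library was checked against marker genes, whose promoter peaks did not show a muscle character of the tumor. Of 12 myogenic markers, 2 had a promoter peak, Pax3 (18.1), whose locus carries the fusion allele in these mice, and Myf6 (5.97), whose locus carries Cre. The myogenic regulators Myod1 and Myog, Myf5, Pax7 and Des had none. The windows of Myog, Pax7 and Msc held no peak of any class, whereas the overlapping windows of Myf5 and Myf6 held 29 and 36. None of 12 endothelial markers and 1 of 10 immune markers (Cd68, 5.91) had a promoter peak. Flank peaks did not set the myogenic list apart, being present for 8 of 12 myogenic markers (up to 13.2), 10 of 12 endothelial markers (up to 17.7) and 7 of 10 immune markers (up to 12.7). Each of the shares with a promoter peak is below the 45.6% of all genes, and whether other cells in the sort added to the peaks near the feedback genes was not tested. Peak names in the list are numbered, 584 numbers are absent, and none of them falls inside the windows of the 10 genes.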

How the data were processed

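The authors mapped read pairs to mm10 (bowtie in the methods, BWA and SAMtools in the submitters' processing notes), filtered out problem regions of the genome as well as amplified DNA close to Col19a1, and called peaks per library against IgG. The methods name an early MACS and the processing notes MACS2, and no peak had a q above 0.0471. The deposited peaks each carry a fold enrichment (a ratio to the background), -log10 p, -log10 q and a score. The score was 10 times -log10 q cut to a whole number in 100% of peaks.

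Fragments were recovered by solving fold and -log10 p for whole numbers within 0.002 (scale 0.885, 99.998% of peaks solved, 98.7% uniquely, against 0.672% with a scale 3% off). This step and the counting of peaks were tested on simulated data. Genes, 31647 curated start sites and sequences came from RefSeq (GRCm38). An overlap of 1 bp counted. Python 3.11.15, numpy 2.4.6, scipy 1.17.1 and pandas 2.3.3 were used.

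The 10 genes and the lists were chosen with earlier results of these data known. Named are the 10 genes and their strongest peaks per class, and for each pathway list the 3 genes with the highest promoter fold and those without a promoter peak. Alternatives varied windows, thresholds, annotation, motif windows, clusters and scale.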

Additional observations from a re-analysis of the deposited data

How the results depend on the processing

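For the comparisons, counts and medians were held to 1.5 times the reported value, and shares to their counting interval. Of the values recomputed, 75 stayed within these limits and 9 did not. Of the peak counts of single genes, 52 stayed within 1.5 times and 28 did not, all with other flanks or stricter thresholds. With a flank of 20 kb Spry1 had 8 peaks (27 at 50 kb), Dusp6 23 (35) and Etv4 5 (11), and with 100 kb Spry2 had 26 (15), Spred2 79 (51), Dusp5 24 (14), Dusp6 59 (35) and Etv4 17 (11). With only peaks of -log10 q of 5 or more, the 243 peaks fell to 104 and the median per window from 17 to 9, against 4 over all genes. That q was reached by 61.1% of the promoter peaks near the 10 genes, against 58.6% of all promoter peaks. It was reached by 36.6% of their gene body peaks and 42.5% of their flank peaks, against 45.0% of all peaks away from promoters. With the strongest 25% of peaks the 243 fell to 39, a smaller share than the 25% kept over the whole list. The median per window fell to 3.5, against 2 over all genes. The shares with a promoter peak fell to 66.7% (RAS-MAPK cascade), 64.7% (other brakes) and 35.7% (ERK-induced genes), against 29.3% of all genes. These are settings with fewer peaks. In whole peaks away from promoters CCGGAAG was found in 3.00%, against 1.31% of all such peaks, and the CArG box in 0%, against 1.47%. A promoter of 1 kb left 8 of the 10 genes with a promoter peak, without Spry1 and Etv4, against 43.5% of all genes. The median strongest promoter fold was then 7.19, against 7.04 over all genes. Adding predicted transcripts, chosen after seeing the data, left 10 of 10, against 46.8% of all genes. Start sites were already curated, so a curated set was not tried as an alternative. With 1 library, no spread between tumors is known.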
